A study of Mus musculus with 4 samples.

Results

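Sensors of microbial products and the transporter of IgA were compared between deep crypt secretory (DCS) cells and Lgr5+ stem cells of the mouse colon. The 10 genes were taken by symbol from a table of 14519 genes. They are the Toll-like receptor genes Tlr1, Tlr2, Tlr3, Tlr4 and Tlr5, the adaptor gene Myd88, the Nod-like receptor genes Nod1, Nod2 and Nlrp6, and Pigr, which encodes the polymeric immunoglobulin receptor. All 10 were listed, and 9 reached the level set for testing, which was 5 RPM or more in 2 or more libraries. RPM is a gene's reads scaled to the same total in every library. Tlr2 and Nod2 reached that level through the Lgr5+ libraries alone, so that they had to differ to be tested, and Tlr5 did not reach it.

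The study sorted cells of the colonic epithelium that carried Reg4-dsRed (Reg4+ DCS) or Lgr5-GFP (Lgr5+), both fluorescent reporters, and made 2 libraries of each population. Reg4 encodes a secreted lectin of DCS cells, which lie between the stem cells at the crypt base and make mucus, and Lgr5 encodes a receptor of the Wnt pathway that marks the stem cells. No treatment is named. The sources used here do not give the strain, age and sex of the mice, the number pooled per sort or whether 1 mouse carried both reporters, so each population is defined by its reporter alone. RNA was measured by CEL-seq, which reads transcripts at their 3′ ends. RPM therefore does not scale with gene length, and levels of different genes are set side by side here. Other influences on the reads counted for a gene, such as the annotation of its 3′ end, were not examined.

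Epithelial cells of the colon meet bacteria through pattern recognition receptors. Toll-like receptors lie in the plasma membrane (Tlr1, Tlr2, Tlr4 and Tlr5, for lipopeptides, lipopolysaccharide and flagellin) or in endosomes (Tlr3, for double-stranded RNA), and all of these except Tlr3 signal through Myd88 to NF-kappaB. Nod1 and Nod2 detect fragments of bacterial cell walls in the cytosol. Nlrp6 joins the adaptor Pycard and the protease Casp1 in an inflammasome and is known for its part in mucus release by goblet cells of the mouse colon. Pigr carries IgA, made by plasma cells beneath the epithelium, through the cell into the lumen.

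The sequences before the transcription starts of 3 genes are shown because they span the range of differences, Nlrp6 and Nod1 among the genes that were higher in Lgr5+ cells and Pigr as the most abundant one. They are the 250 bases before the start in RefSeq (GRCm38.p6), for Nod1 the first of 2 listed starts, and none overlaps an exon of GENCODE M21. Capitals mark a match to a motif searched on both strands.
Nlrp6, chr7:140920652-140920901, plus strand: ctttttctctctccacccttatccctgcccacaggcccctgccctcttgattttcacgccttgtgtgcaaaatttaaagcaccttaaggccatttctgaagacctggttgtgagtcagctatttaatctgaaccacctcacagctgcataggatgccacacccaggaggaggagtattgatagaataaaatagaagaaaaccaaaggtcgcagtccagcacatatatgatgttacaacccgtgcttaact
Nod1, chr6:54972613-54972862, minus strand: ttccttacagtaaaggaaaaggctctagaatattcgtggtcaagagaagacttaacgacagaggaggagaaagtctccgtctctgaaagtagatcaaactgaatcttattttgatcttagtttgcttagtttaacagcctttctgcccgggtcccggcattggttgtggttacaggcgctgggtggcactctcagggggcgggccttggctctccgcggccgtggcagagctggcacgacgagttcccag
Pigr, chr1:130826434-130826683, plus strand: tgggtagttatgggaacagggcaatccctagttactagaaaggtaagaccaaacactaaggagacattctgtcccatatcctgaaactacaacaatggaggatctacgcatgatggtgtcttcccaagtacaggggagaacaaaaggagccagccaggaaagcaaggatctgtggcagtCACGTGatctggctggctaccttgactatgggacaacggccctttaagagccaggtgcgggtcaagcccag
The capitals in the Pigr window are CACGTG, the E-box bound by Usf factors, 66 to 71 bases before the start. That motif was in 6.04% of 32536 unique promoter windows of the same length. A window of Tlr1, not shown, held it as well, 190 to 195 bases before its start. The Nlrp6 and Nod1 windows held no match to any of the 6 motifs searched, the E-box included. The others were the TATA box, TATAAA, in 12.3% of windows, the NF-kappaB motif, GGGANTTCC, in 1.44%, and the interferon response element, GAAANNGAA, in 7.15%. The Hnf4 motif, CAAAGTCCA, was in 0.387% of windows and the Tcf motif, ATCAAAG, in 3.21%. The Myd88 window, not shown, held matches to the TATA box and the interferon response element.

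The window of Tlr2 overlaps an annotated exon, and 30 bases around its NF-kappaB match are shown because NF-kappaB is the factor at the end of Toll-like receptor signalling.
Tlr2, chr3:83841761-83841790, minus strand: aggacacctgGGGAATTCCCacacggagcc
The capitals mark bases that match GGGANTTCC on both strands in overlapping positions, 163 to 172 bases before the RefSeq start. That start is at 83841608, whereas the GENCODE M21 start is at 83841767, among the 30 bases shown and after the capitals. The GC content was 45.6% in the Nlrp6 window, 51.6% in that shown for Nod1 and 50.4% in that of Pigr, against a median of 52.4% over all windows. The Nod1 window shown held 12 CpG dinucleotides, against 3 in that of Nlrp6, 4 in that of Pigr and a median of 6. The window of the other Nod1 start (chr6:54971662-54971911, minus strand), not shown, held 4, with a GC content of 48.0%. A match describes letters in a window and says nothing of a factor's presence there. Of the 10 genes 9 had a window in the RefSeq table, and none is shown for Tlr4.

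The libraries held 5205723 and 7955340 reads for Lgr5+ replicates 1 and 2, and 7414264 and 5448260 reads for the Reg4+ DCS replicates, as recovered from the steps between RPM values. Values of the Reg4+ DCS libraries decoded as means over 2 parts scaled on their own, called the first and the second part here. One read was worth from 0.126 to 0.192 RPM in Lgr5+ libraries and from 0.181 to 0.529 RPM in those parts. Summed epithelial markers were at 9659 to 12991 RPM over the 4 libraries, with 8 of 8 markers tested and 0 called by limma. Summed goblet markers, which DCS cells share, were at 210619 and 139466 RPM in DCS libraries and 6407 and 2478 RPM in Lgr5+ libraries. Summed stem cell markers were at 32.8 and 55.5 RPM in DCS libraries and 489 and 586 RPM in Lgr5+ libraries, in the direction of the labels. Zeros were shared within each population: 1641 genes were at 0 for both Reg4+ DCS replicates and 8 for only 1 of them, and 308 were at 0 for both Lgr5+ replicates and 2 for only 1. Whether a 0 is a count of 0 or a value left out of the table cannot be told apart, so a gene at 0 is called listed at 0 and not absent. Tuft cell markers were summed to 958 and 261 RPM in Lgr5+ cells and to 1.15 and 1.28 RPM in Reg4+ DCS libraries, where 5 of the 7 were listed at 0. Leukocyte markers, 9 of 18 listed, were summed to 49.8 and 16.0 RPM in Lgr5+ and to 1.80 and 1.54 RPM in Reg4+ DCS libraries, where Ptprc, Cd3e, Cd79a, Tyrobp and Coro1a were listed at 0. Most of the leukocyte sum in Lgr5+ cells was Ptprc, at 40.1 and 9.55 RPM, and the other 8 genes summed to 9.60 and 6.41 RPM.

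Of the 10 genes, limma called 4 higher in Lgr5+ cells, Nlrp6, Tlr2, Nod1 and Nod2, and 0 higher in Reg4+ DCS cells. The tests of Tlr1, Tlr3, Tlr4, Myd88 and Pigr did not pass, and Tlr5 was not tested. A call is an adjusted p under 0.05 on log2(RPM + 1), with fold changes given as Reg4+ DCS minus Lgr5+. Among all 10183 genes tested, 34.1% were called, 26.9% higher in Lgr5+ cells and 7.18% higher in Reg4+ DCS cells, so calls toward Lgr5+ were common in this comparison. The median log2 fold change of all genes tested was −0.47, against −0.91 for the 9 genes. Tlr2 and Nod2, among the 9 and among those called, reached the level for testing through the Lgr5+ libraries alone. The median of the 9 genes was thus tilted toward Lgr5+ cells in advance, and no lean of the set can be read from it. After median-of-ratios scaling, which moved the median of all genes to 0.02, the shares called were 12.7% toward Lgr5+ and 15.6% toward Reg4+ DCS cells. In that scaling 3 of the 9 genes were called higher in Lgr5+ cells and 0 in Reg4+ DCS cells. The p-values measure the spread between these 4 samples, which the design text calls biological replicates without saying from which animals they came. These are bulk libraries of sorted cells, in which fewer cells of a type and less RNA per cell cannot be told apart.

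**Figure D1:**
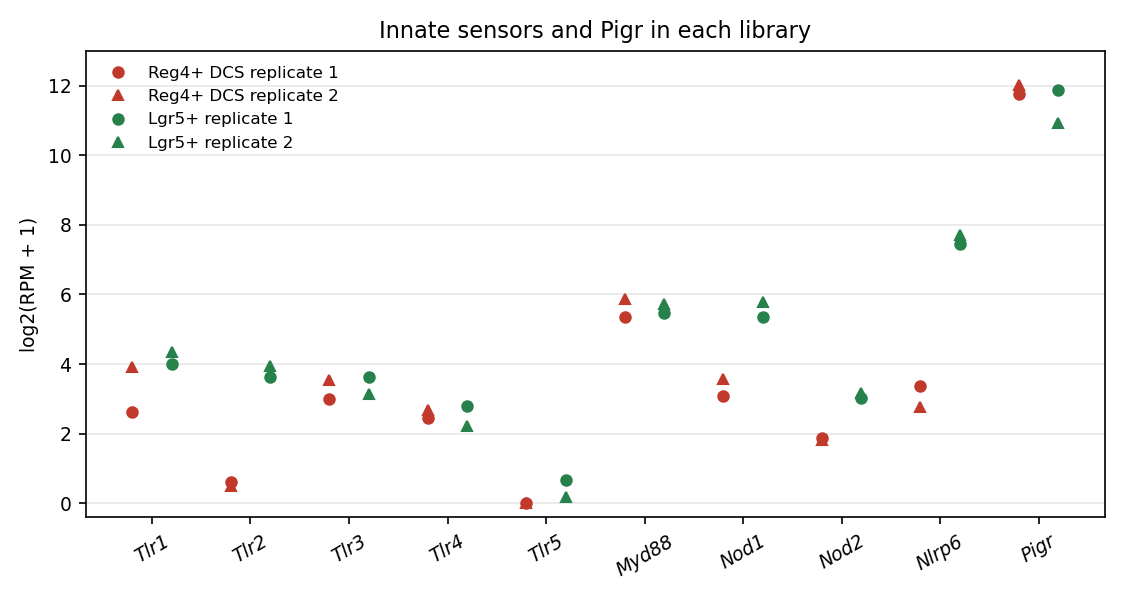
Level of each gene, as log2(RPM + 1), in the 4 libraries. Red marks are Reg4+ DCS and green marks Lgr5+ libraries, circles replicate 1 and triangles replicate 2. Nlrp6, Tlr2, Nod1 and Nod2 stand apart between the populations, Pigr lies above all others at 1962 to 4105 RPM, and Tlr5 lies at 0 to 0.576 RPM.

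On the log2(RPM + 1) scale the largest difference of the 9 genes was that of Nlrp6 (chr7:140920902-140929192, plus strand). Its level was 9.28 and 5.85 RPM in Reg4+ DCS replicates 1 and 2 and 175 and 207 RPM in Lgr5+ replicates 1 and 2, the order in which pairs of values are given throughout. Both Lgr5+ libraries lay far above both Reg4+ DCS libraries, and the groups did not overlap. The means were 7.56 ± 2.43 against 191 ± 22.4 RPM (SD, n = 2 each), a 25.3-fold difference that ranged from 20.6-fold to 32.7-fold when 1 library was left out. The log2 fold change was −4.51 (SE 0.29, limma adjusted p = 0.000143), or −4.04 relative to the median of all genes. The values rest on 47 and 19 reads in the parts of Reg4+ DCS replicate 1, 13 and 18 in those of replicate 2, and 912 and 1646 reads in the Lgr5+ libraries. All 14 alternative analyses called Nlrp6 higher in Lgr5+ cells, with adjusted p up to 0.00542. In Lgr5+ cells Nlrp6 was above 94.7% of all listed genes, and in Reg4+ DCS cells above 42.7%.

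Among the plasma membrane receptors, Tlr2 (chr3:83836272-83841767, minus strand), the receptor for bacterial lipopeptides, stayed under 1 RPM in the Reg4+ DCS libraries. Its level was 0.529 and 0.409 RPM in DCS libraries and 11.3 and 14.5 RPM in Lgr5+ libraries. The groups were far apart, at 0.469 ± 0.0846 against 12.9 ± 2.21 RPM (SD, n = 2 each), or 27.5-fold. The log2 fold change was −3.23 (SE 0.34, limma adjusted p = 0.000542). It understates the ratio of RPM because 1 was added to a level below 1. All 12 alternative analyses that tested Tlr2 called it, but those that left out an Lgr5+ library could not test it.

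The Reg4+ DCS value of Tlr2 rests on 2 reads in the second part of each replicate, while the first part listed it at 0 in both. Those 4 reads stood against 174 in the Lgr5+ libraries, a depth-scaled ratio of 42.5 with an exact 95% counting interval from 16.3 to 158. With the second part alone the ratio of reads was 14.3 (5.50 to 53.2), and the ratio of mean RPM was 13.7-fold in place of 27.5-fold. Such zeros were shared as well: of 14390 genes recovered in both replicates, 1824 were at 0 in the first part of both and 6 in the first part of only 1. If the first part left Tlr2 out, its level in Reg4+ DCS cells is that of the second part and the 13.7-fold ratio applies. The table cannot settle this. The ratio of Tlr2 to Tlr1 and the fold with 1 library left out, both given below, use both parts. The intervals cover counting error only, since the sources used here name no molecular identifiers.

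Tlr1 (chr5:64924679-64933563, minus strand) encodes a partner with which Tlr2 forms a receptor for triacylated lipopeptides. Its level was 5.18 and 14.1 RPM in DCS libraries and 15.2 and 19.2 RPM in Lgr5+ libraries. The groups did not overlap, but Reg4+ DCS replicate 2 lay close to Lgr5+ replicate 1. The means of 9.64 ± 6.31 and 17.2 ± 2.87 RPM gave a log2 fold change of −0.91 (SE 0.44, 95% interval −1.91 to 0.10, limma adjusted p = 0.140), which was not called. Without Reg4+ DCS replicate 2 it was −1.55 and called (adjusted p = 0.0298), and without Reg4+ DCS replicate 1 it was −0.26 (adjusted p = 0.631). The ratio of mean RPM was 1.78-fold with all libraries, 3.32-fold and 1.22-fold in those 2 cases. Within a library, the RPM of Tlr2 divided by that of Tlr1 was 0.102 and 0.0290 in Reg4+ DCS and 0.747 and 0.752 in Lgr5+ libraries. Tlr6, the other partner of Tlr2, was at 0.0905 to 0.251 RPM in all 4 libraries and was not tested.

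Tlr4 (chr4:66827584-66930284, plus strand), the receptor for lipopolysaccharide, was at 4.46 and 5.36 RPM in DCS libraries and 5.95 and 3.65 RPM in Lgr5+ libraries. The Lgr5+ libraries lay on either side of the Reg4+ DCS libraries, and 1 library of each group was under 5 RPM. The log2 fold change was 0.05 (SE 0.36, 95% interval −0.77 to 0.87, limma adjusted p = 0.920). Tlr3 (chr8:45395665-45411080, minus strand), the endosomal receptor for double-stranded RNA, was at 6.91 and 10.6 RPM against 11.3 and 7.79 RPM, again with overlapping groups. Its log2 fold change was −0.12 (SE 0.35, 95% interval −0.93 to 0.69, limma adjusted p = 0.812) and 0.34 after median-of-ratios scaling, so that no direction can be given. The antisense gene Gm45542 overlaps exons of Tlr3 on the opposite strand, and the sources used here do not say whether the authors counted by strand.

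Tlr5 (chr1:182954788-182976044, plus strand), the receptor for flagellin, was listed at 0 for both DCS replicates, with 0.576 and 0.126 RPM for Lgr5+ cells. The latter values are 3 reads and 1 read. A difference was not detectable at this depth, and no fold is given.

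Myd88 (chr9:119335934-119341411, minus strand), the adaptor shared by most Toll-like receptors, was present in all libraries, with overlapping groups. It was at 40.0 and 58.0 RPM in DCS libraries and 43.4 and 51.9 RPM in Lgr5+ libraries, so that the Lgr5+ values lay between those of Reg4+ DCS. The log2 fold change was 0.02 (SE 0.27, limma adjusted p = 0.959), and its 95% interval from −0.61 to 0.65 leaves room for a difference of either sign. After median-of-ratios scaling it was 0.52 (adjusted p = 0.137).

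Both cytosolic receptors for cell wall fragments were called higher in Lgr5+ cells. Nod1 (chr6:54923949-54972612, minus strand) was at 7.49 and 10.8 RPM in DCS libraries and 39.8 and 53.8 RPM in Lgr5+ libraries. The groups were well apart, at 9.14 ± 2.34 against 46.8 ± 9.93 RPM (SD, n = 2 each), a 5.12-fold difference (4.33-fold to 6.25-fold with 1 library left out). The log2 fold change was −2.24 (SE 0.31, limma adjusted p = 0.00163), and all 14 alternative analyses called it, with adjusted p up to 0.0183.

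Nod2 (chr8:88647315-88688474, plus strand) was the least abundant of the called genes in Lgr5+ cells. It was at 2.68 and 2.55 RPM in DCS libraries and 7.11 and 8.04 RPM in Lgr5+ libraries. Its 2.90-fold difference had a log2 fold change of −1.25 (SE 0.33, limma adjusted p = 0.0219). The call was lost after median-of-ratios scaling (−0.83, adjusted p = 0.0914), in edgeR on recovered reads (adjusted p = 0.0653) and without Reg4+ DCS replicate 1 (adjusted p = 0.0874) or replicate 2 (adjusted p = 0.0620). It was also lost with the second part of the Reg4+ DCS columns alone (−0.99, adjusted p = 0.0963), where the ratio was 2.25-fold, against 4.08-fold with the first part alone. With either Lgr5+ library left out, Nod2 and Tlr2 were under the filter and not tested. The ratio of Nod1 to Nod2 within a library was 2.79 and 4.24 in Reg4+ DCS and 5.59 and 6.69 in Lgr5+ libraries.

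**Figure D2:**
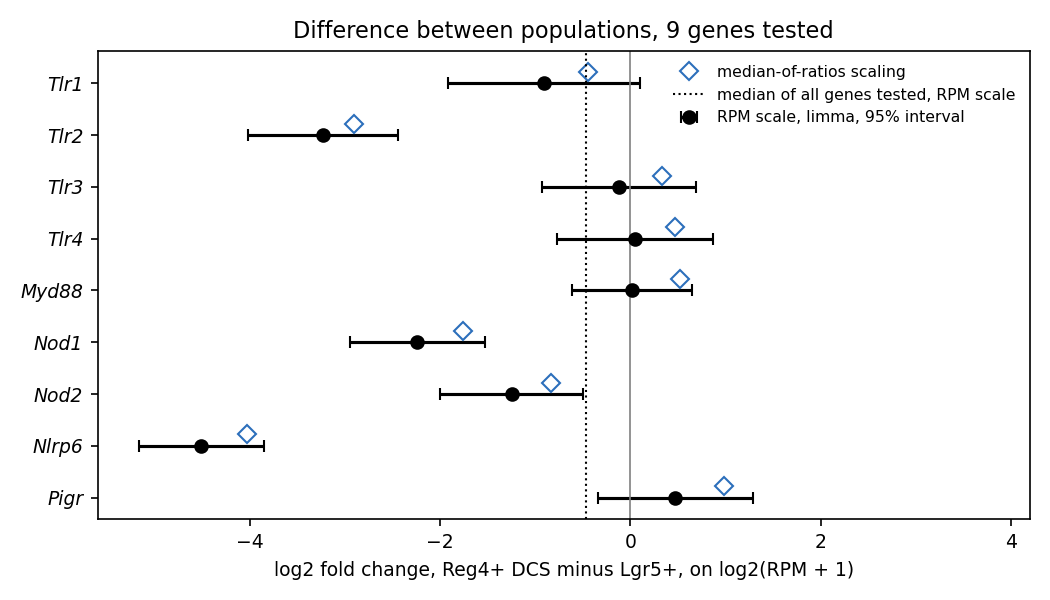
Log2 fold change of the 9 genes tested, Reg4+ DCS minus Lgr5+ on log2(RPM + 1). Black points are limma estimates with 95% intervals, open diamonds the values after median-of-ratios scaling and the dotted line the median of all genes at −0.47. Nlrp6, Tlr2 and Nod1 lie at −4.51, −3.23 and −2.24, while the intervals of Tlr1, Tlr3, Tlr4, Myd88 and Pigr include 0.

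Pigr (chr1:130826684-130852249, plus strand) was by far the most abundant of the 10 genes in both populations, above 99.9% of listed genes in Reg4+ DCS and 99.8% in Lgr5+ cells. It was at 3455 and 4105 RPM in DCS libraries and 3740 and 1962 RPM in Lgr5+ libraries. Lgr5+ replicate 1 lay between the Reg4+ DCS libraries, and Lgr5+ replicate 2 lay below all others. The means were 3780 ± 460 and 2851 ± 1257 RPM (SD, n = 2 each), with a log2 fold change of 0.48 (SE 0.36, 95% interval −0.34 to 1.29, limma adjusted p = 0.318).

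Leaving out an Lgr5+ library moved the Pigr result. Without Lgr5+ replicate 1 the log2 fold change was 0.94 and called higher in Reg4+ DCS cells (adjusted p = 0.0265), and without Lgr5+ replicate 2 it was 0.01 (adjusted p = 0.987). After median-of-ratios scaling it was 0.98 (adjusted p = 0.0859). Markers of absorptive cells, a list with genes called in both directions, summed to 419 and 546 RPM in the Reg4+ DCS libraries. They summed to 1017 RPM in Lgr5+ replicate 1 and 223 RPM in Lgr5+ replicate 2, a 4.55-fold difference beside the 1.91-fold difference of Pigr. Goblet markers differed 2.59-fold between the same 2 libraries. The part of these cells in the Pigr level was not tested. The parts of Reg4+ DCS replicate 1 differed as well, with 4441 and 2469 RPM of Pigr.

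Tuft and leukocyte markers, like the 4 called genes, had higher sums in both Lgr5+ libraries than in the Reg4+ DCS libraries. The part of such cells in the 4 differences was not tested. Between Lgr5+ replicates 1 and 2 tuft markers differed 3.67-fold and leukocyte markers 3.12-fold, or 1.5-fold without Ptprc, and the ratio was 0.847 for Nlrp6, 0.784 for Tlr2, 0.739 for Nod1 and 0.883 for Nod2. The summed stem cell markers had a ratio of 0.834. With Lgr5+ replicate 1 left out, Nlrp6 was 27.4-fold, Tlr2 30.8-fold, Nod1 5.88-fold and Nod2 3.08-fold higher in Lgr5+ than in Reg4+ DCS cells by mean RPM.

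**Figure D3:**
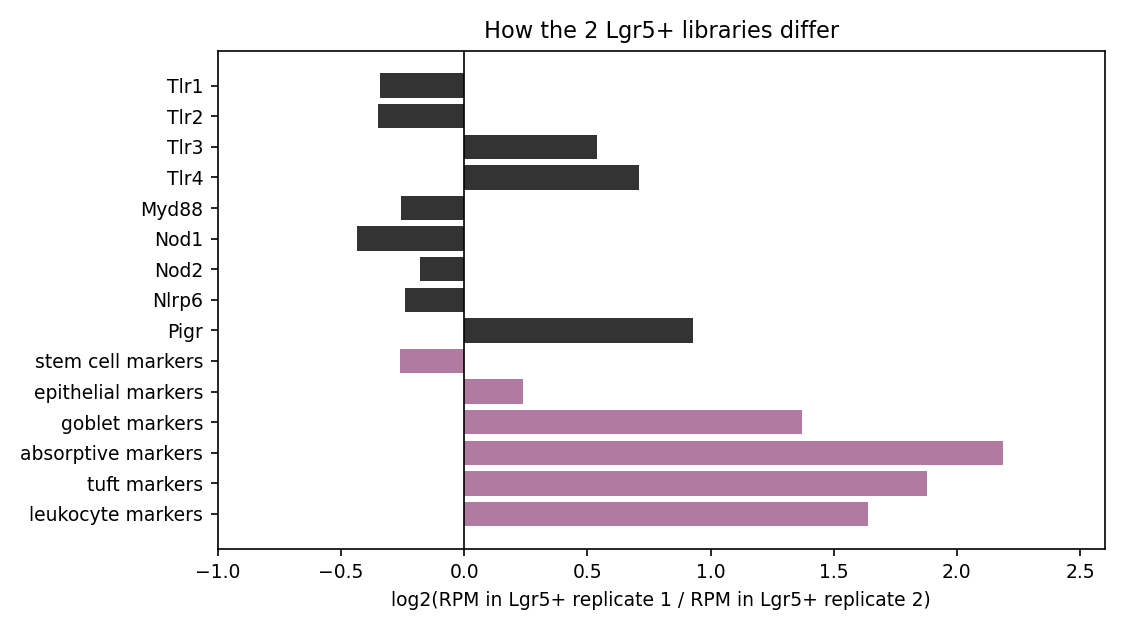
Log2 ratio of RPM in Lgr5+ replicate 1 over replicate 2, for 9 genes (black bars) and for summed marker lists (purple bars). Pigr, Tlr3, Tlr4 and the absorptive, tuft, goblet, leukocyte and epithelial markers were higher in replicate 1. Nlrp6, Tlr2, Nod1, Nod2, Tlr1, Myd88 and the stem cell markers were higher in replicate 2. Tlr4 rests on 31 and 29 reads and Tlr3 on 59 and 62, in replicates 1 and 2. The cell source of the RNA of these genes was not tested.

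The order of levels differed between the populations. In Reg4+ DCS cells Pigr was followed by Myd88, and then by Tlr1, Nod1, Tlr3 and Nlrp6, whose neighbours in that order had overlapping libraries. Tlr4, Nod2, Tlr2 and Tlr5 came below them, each with both libraries under those of the gene before. In Lgr5+ cells Nlrp6 came next after Pigr, ahead of Myd88 and Nod1, which overlapped with each other. Tlr1 followed, then Tlr2, Tlr3 and Nod2 with overlapping neighbours, then Tlr4 and Tlr5. Against Myd88 in the same library, Nlrp6 was at a ratio of 0.232 and 0.101 in Reg4+ DCS and 4.04 and 3.99 in Lgr5+ libraries. Pycard, the adaptor of the Nlrp6 inflammasome, was at 90.9, 104, 104 and 104 RPM in the same order of libraries, and Nlrp6 stood to it at 0.102, 0.0565, 1.68 and 2.00.

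Among 8478 tested genes with a mean of at least 10 RPM, those whose pattern over the 4 libraries lay closest to each gene were listed by the root mean square difference of centred log2(RPM + 1). For Nlrp6 they were Cd44 (0.13), which encodes the hyaluronan receptor, the gene listed as Clca2 (0.17) and Mgst1 (0.17). For Tlr2 they were Pvrl3 (0.095), Tinag (0.13) and Adamts15 (0.14). Nod1 lay closest to Sept6 (0.035), Paics (0.041), an enzyme of purine synthesis, and Cdca5 (0.041), a cohesin regulator of dividing cells. Nod2 lay closest to Psmb9 (0.018), a subunit of the immunoproteasome, Gtf2h4 (0.020) and Plbd1 (0.035). Pigr lay closest to Mvp (0.022), the major vault protein, Serpinb1a (0.036) and Golga4 (0.052), a Golgi protein. Tlr1 lay closest to Sugp2, Bnip2 and Slc5a3 (0.032 to 0.049), Tlr3 to Frk, Eml2 and Epb4.1l2 (0.022 to 0.027), and Tlr4 to Tor1b, Pdcd6ip and Abhd17b (0.021 to 0.031). Myd88 lay closest to Pdrg1, Clns1a and 5033406O09Rik (0.028 to 0.030). With 2 populations of 2 libraries many genes share such patterns, and likeness here describes 4 values per gene.

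The other genes of these pathways were described by 8 lists of 119 genes, of which 104 were in the table and 91 were tested. Limma called 7 toward Reg4+ DCS and 15 toward Lgr5+ cells, beside 7.18% and 26.9% of all genes, and the median log2 fold change was −0.18 beside −0.47. After median-of-ratios scaling the counts were 23 and 5, beside 15.6% and 12.7% of all genes. In edgeR on recovered reads they were 16 and 4, beside 13.4% of all genes in each direction. The balance of calls in these lists thus depended on the scaling. These shares of all genes are also the background for the counts of each list below. Among the named genes Cd14, Nlrp1a, Cgas, Irak3 and Rab3d were called in every alternative analysis in which they were tested, and the other calls named next were lost in at least 1. Of these, Cgas and Tab3 reached the level for testing through the Lgr5+ libraries alone and Irak3 through the Reg4+ DCS libraries alone, so that they had to differ to be tested. With either library of that population left out they were not tested.

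Around the Toll-like receptors, 8 of 16 co-receptors and further receptors were listed and 5 tested, with 1 called in each direction and a median of −0.31. Cd14, the co-receptor that hands lipopolysaccharide to Tlr4, was at 25.0 and 23.3 RPM in DCS libraries and 68.8 and 71.1 RPM in Lgr5+ libraries. Its 2.89-fold difference (log2 fold change −1.50, limma adjusted p = 0.00303) stood beside overlapping levels of Tlr4. Ly96, which binds Tlr4, differed by −0.33 on the log2 scale (adjusted p = 0.486) and 0.09 after median-of-ratios scaling. Hsp90b1, a chaperone of Toll-like receptors and other secretory pathway proteins, was 1.57-fold higher in Reg4+ DCS cells (0.65, adjusted p = 0.0470), a call that was lost whichever library was left out (adjusted p from 0.116 to 0.157). Unc93b1, which escorts endosomal receptors, was at 47.5 and 31.5 RPM against 20.2 and 23.5 RPM (0.80, adjusted p = 0.0660). It was called higher in Reg4+ DCS cells after median-of-ratios scaling (1.29, adjusted p = 0.0173), in edgeR on recovered reads (1.13, adjusted p = 0.0191), with a replicate block (adjusted p = 0.0352) and without Reg4+ DCS replicate 2 (1.09, adjusted p = 0.0476).

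Of 19 adaptors and kinases downstream, 16 were tested, 0 were called toward Reg4+ DCS and 3 toward Lgr5+ cells, with a median of −0.53, close to that of all genes. The called genes were the kinases Tbk1 (1.94-fold, adjusted p = 0.0325) and Irak1 (1.69-fold, adjusted p = 0.0365) and the kinase-binding protein Tab3 (2.56-fold, adjusted p = 0.0346). After median-of-ratios scaling 0 of the 16 were called, and Tbk1, Irak1 and Tab3 had adjusted p of 0.170, 0.434 and 0.151. Leaving out Reg4+ DCS replicate 1 also ended all 3 calls (adjusted p from 0.117 to 0.163). That of Irak1 was lost whichever library was left out (0.0596 to 0.164), that of Tbk1 also without either Lgr5+ library (0.0620 and 0.0565) and that of Tab3 also without Reg4+ DCS replicate 2 (0.0865) and with no filter on low values (0.0551). The other genes named for this list were not called: Tirap, the bridge from Tlr2 and Tlr4 to Myd88 (log2 fold change −0.60, adjusted p = 0.0663), Ticam1, the adaptor of Tlr3 (0.31, 0.371), Traf6 (−0.71, 0.115) and Irak4 (−0.04, 0.930, with 0.41 after median-of-ratios scaling).

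Among 13 genes that restrain Toll-like receptor signalling, 11 were tested, and the 1 called was Irak3, with 0 called higher in Lgr5+ cells and a median of −0.06. Irak3 encodes an inactive relative of the Irak kinases that holds back signalling from Myd88. It was at 44.4 and 35.7 RPM in DCS libraries and 3.07 and 3.52 RPM in Lgr5+ libraries. Its 12.2-fold difference (10.8-fold to 13.5-fold with 1 library left out, log2 fold change 3.25, limma adjusted p = 0.000311) was the largest of the called pathway genes. The other brakes named were not called: Tollip (0.24, adjusted p = 0.475), Sigirr (−0.15, 0.677, with 0.34 after median-of-ratios scaling), Tnfaip3 (0.27, 0.491) and Nfkbia (0.30, 0.444). Tollip was called higher in Reg4+ DCS cells after that scaling (0.74, adjusted p = 0.0342). Of the 9 genes of the NF-kappaB core, all tested, Relb (2.19-fold, adjusted p = 0.0229) and the kinase Ikbkb (1.95-fold, adjusted p = 0.0405) were called higher in Lgr5+ cells, with a median of −0.05. Both calls were lost after median-of-ratios scaling (adjusted p = 0.113 and 0.191) and without Reg4+ DCS replicate 1 (adjusted p = 0.0989 and 0.190). Relb was not called without Lgr5+ replicate 1 either (adjusted p = 0.110), nor Ikbkb without Lgr5+ replicate 2 (adjusted p = 0.0818).

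Downstream of Nod1 and Nod2, 9 of 12 genes were tested, with 0 called higher in Reg4+ DCS cells, 1 in Lgr5+ cells and a median of −0.18. The 1 was Rnf31, a ubiquitin ligase of the linear chain complex (2.19-fold, adjusted p = 0.0294, and 0.134 after median-of-ratios scaling). Its call was lost whichever library was left out, with adjusted p from 0.0508 to 0.146. Ripk2, the kinase that both receptors engage, was at 2.15 and 2.02 RPM in DCS libraries and 5.95 and 4.27 RPM in Lgr5+ libraries and was under the level for testing.

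In the list of inflammasome genes and other Nod-like receptors, 14 of 21 were tested, 2 were called in each direction and the median was −0.01. Nlrp1a, a sensor that activates Casp1, was at 8.51 and 13.6 RPM in DCS libraries and 50.5 and 43.1 RPM in Lgr5+ libraries, or 4.23-fold higher (log2 fold change −2.02, limma adjusted p = 0.00249). Casp1, the inflammasome protease, was 1.95-fold higher in Lgr5+ cells (adjusted p = 0.0441). That call was lost after median-of-ratios scaling (adjusted p = 0.208), without Reg4+ DCS replicate 1 (adjusted p = 0.234) and without Lgr5+ replicate 1 (adjusted p = 0.15). In the other direction Nlrp10 was at 23.4 and 21.9 RPM against 10.6 and 6.41 RPM (2.67-fold, adjusted p = 0.0160). Naip1, a sensor of bacterial secretion systems, was at 29.6 and 30.7 RPM against 17.9 and 10.1 RPM (2.16-fold, adjusted p = 0.0338). Neither was called without Reg4+ DCS replicate 1 (adjusted p = 0.0874 and 0.125), Reg4+ DCS replicate 2 (0.0540 and 0.104) or Lgr5+ replicate 2 (0.0698 and 0.180). Without Lgr5+ replicate 2 the ratios of mean RPM were 2.15-fold and 1.69-fold. The Nlrp1 and Naip genes have near-identical copies, and the sources used here do not say how the authors split reads between copies.

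The remaining inflammasome genes named were not called. The log2 fold change of Pycard was −0.10 (adjusted p = 0.743) and 0.40 after median-of-ratios scaling (adjusted p = 0.173). Il18, a cytokine that Casp1 matures, was at 29.1 and 35.2 RPM in DCS libraries and 28.2 and 15.8 RPM in Lgr5+ libraries (0.57, adjusted p = 0.204). It was called higher in Reg4+ DCS cells after median-of-ratios scaling (1.06, adjusted p = 0.0267). Nlrc4 differed by −0.45 on the log2 scale (adjusted p = 0.344) and 0.02 after that scaling.

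Sensors of cytosolic nucleic acids, 9 of 9 tested, had 1 call toward Reg4+ DCS and 3 toward Lgr5+ cells, with a median of −0.48. Of all genes tested, 7.18% and 26.9% were called in these directions, with a median of −0.47. Cgas, the enzyme that makes the messenger for Sting1 from cytosolic DNA, was at 2.96 and 3.34 RPM in DCS libraries and 14.4 and 13.6 RPM in Lgr5+ libraries, or 4.44-fold higher (log2 fold change −1.85, limma adjusted p = 0.00379). Sting1, which binds that messenger, was at 4.02 and 10.5 RPM against 21.5 and 34.3 RPM (3.85-fold, adjusted p = 0.0141). Leaving out Reg4+ DCS replicate 1 ended the call (2.66-fold, adjusted p = 0.0774), and without Reg4+ DCS replicate 2 the ratio was 6.94-fold. Ddx41 was 1.94-fold higher in Lgr5+ cells with an adjusted p of 0.0205, but was not called after median-of-ratios scaling (0.197) or with any library left out (0.0528 to 0.0760). Zbp1, a sensor of Z-form nucleic acids, was at 33.6 and 22.6 RPM against 11.1 and 4.15 RPM, 3.68-fold higher in Reg4+ DCS cells (1.85, adjusted p = 0.0150). Without Reg4+ DCS replicate 1 it was not called (adjusted p = 0.115), and without Lgr5+ replicate 1 the ratio was 6.77-fold.

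**Figure D4:**
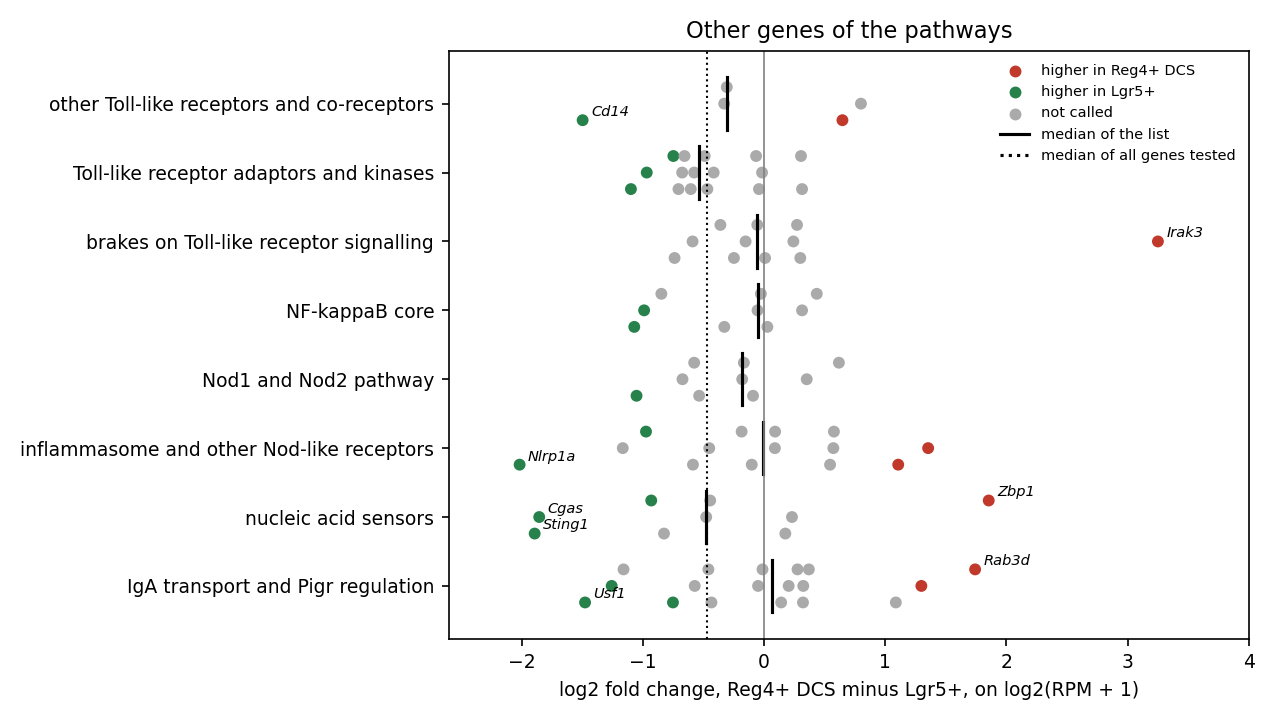
Log2 fold change, Reg4+ DCS minus Lgr5+ on log2(RPM + 1), of each tested gene of the 8 pathway lists. Red and green points are genes called by limma as higher in Reg4+ DCS or Lgr5+ cells, black bars are list medians and the dotted line is the median of all genes tested at −0.47. Irak3 stands at 3.25, far to the right of all other points, and Nlrp1a, Sting1 and Cgas lie at the left edge.

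Of 20 genes of IgA transport and Pigr regulation, 18 were tested, with 2 called toward Reg4+ DCS and 3 toward Lgr5+ cells and a median of 0.06. After median-of-ratios scaling the calls were 8 and 1, beside 15.6% and 12.7% of all genes, so the balance of this list depended on the scaling. Rab3d, a Rab protein of secretory granules that has also been tied to the transport of IgA by Pigr, was at 437 and 426 RPM in DCS libraries and 141 and 117 RPM in Lgr5+ libraries. Its 3.35-fold difference (log2 fold change 1.74, limma adjusted p = 0.00113) was called in all 14 alternative analyses. Il4ra, a receptor subunit for interleukin-4 and interleukin-13, was at 50.6 and 48.3 RPM against 28.0 and 13.5 RPM (2.38-fold, adjusted p = 0.0250). That call was lost without either Reg4+ DCS library (adjusted p = 0.123 and 0.0835) and without Lgr5+ replicate 2 (0.110, ratio 1.76-fold), and without Lgr5+ replicate 1 the ratio was 3.67-fold.

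Usf1 and Usf2 encode factors that bind the E-box motif, to which the Pigr window held a match. Their binding at Pigr was not tested. Usf1 was at 5.04 and 3.80 RPM in DCS libraries and 13.6 and 14.3 RPM in Lgr5+ libraries, or 3.16-fold higher in Lgr5+ cells (log2 fold change −1.48, limma adjusted p = 0.0101). It was not called without Lgr5+ replicate 2 (adjusted p = 0.0571) or in edgeR on recovered reads (adjusted p = 0.114). Usf2 was at 196 and 206 RPM against 356 and 322 RPM (1.69-fold, adjusted p = 0.0294), a call lost after median-of-ratios scaling (adjusted p = 0.429) and whichever library was left out (0.0565 to 0.137). Yes1, a kinase of Pigr transcytosis, was 2.43-fold higher in Lgr5+ cells (adjusted p = 0.0175, and 0.0597 after median-of-ratios scaling) and was not called without Reg4+ DCS replicate 1 (adjusted p = 0.0899). Irf1, an interferon-induced factor, differed by −0.46 on the log2 scale (adjusted p = 0.168) and 0.05 after that scaling. The joining chain gene of IgA, Jchain, was listed at 0 for both DCS replicates, with 0.768 and 0.377 RPM for Lgr5+ cells, beside 1962 to 4105 RPM of Pigr in the same libraries. No gene was listed under the symbol Igha.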

How the data were processed

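RNA of sorted Reg4+ DCS and Lgr5+ cells, 2 libraries each, was prepared by CEL-seq and sequenced as paired reads, per the labels' protocols. BWA 0.6.2-r126 and the build mm10 come from the submitters' processing notes. The sources used here do not give the annotation, the counting step or the use of molecular identifiers. The authors deposited 1 table of RPM for 14519 genes, in which abundant transcripts lower the RPM of the others. Whole reads were recovered for 100% of values in both Lgr5+ columns. In the Reg4+ DCS columns, which are sums of 2 step sizes, a unique pair of counts was found for 99.95% of genes in replicate 1 and 99.1% in replicate 2. Pigr in Reg4+ DCS replicate 2 was among the 129 genes without one and has no edgeR value. The sources used here do not say what these parts were, and a column counted as 1 replicate.

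Log2(RPM + 1) was fitted with limma 3.58.1 in R 4.3.3 (lmFit, eBayes with a trend) for genes with at least 5 RPM in at least 2 libraries. P-values were adjusted by Benjamini-Hochberg over 10183 genes and called at 0.05. Folds are ratios of mean RPM. The script was tested on simulated data. Alternatives were a pseudocount of 0.5 or 5, other filters, median-of-ratios scaling, no trend, a replicate block, edgeR 4.0.16 (quasi-likelihood) on recovered reads, and each library left out. Added after seeing the data was each part of the Reg4+ DCS columns alone. Coordinates are from GENCODE M21 (GRCm38).

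The 10 genes and the lists were chosen with earlier results of these data known. Besides the 10, the text names 21 pathway genes whatever their values (Cd14, Ly96, Unc93b1, Tirap, Ticam1, Irak1, Irak4, Traf6, Tollip, Sigirr, Tnfaip3, Nfkbia, Ripk2, Pycard, Casp1, Il18, Nlrc4, Naip1, Jchain, Igha and Irf1), up to 3 called genes per list and direction with the largest change, and the 3 genes closest in pattern to each tested gene. Tlr6 was added as a partner of Tlr2. Jchain, Cgas, Sting1 and the goblet marker Clca1 stand in the table under older symbols. The genes closest in pattern are given by their listed symbols, so that Clca2 need not be the gene that bears this symbol now.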

Additional observations from a re-analysis of the deposited data

How the results depend on the processing

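With 2 libraries per population, a difference of the size seen for Nod2 or Tlr1 sits near the threshold, and Tlr2 rests on few reads in Reg4+ DCS cells, where Tlr5 is listed at 0. Nlrp6 and Nod1 were called higher in Lgr5+ cells in every alternative. Tlr2 was called in every alternative that tested it, but it passed the filter through the Lgr5+ libraries alone. It could not be tested with either of those libraries left out. With 1 library left out, its group has 1 library, which is assumed to vary like the others. The log2 fold change of Pigr then ranged from 0.01 without Lgr5+ replicate 2 to 0.94 without Lgr5+ replicate 1. Leaving out either Lgr5+ library put Tlr2 and Nod2 under the filter.

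Pathway genes called higher in Reg4+ DCS cells numbered 7, and 23 after median-of-ratios scaling, 16 in edgeR, 1 to 6 with 1 library left out and 3 with the second part alone. Toward Lgr5+ cells there were 15, and 5, 4, 4 to 14 and 7. Over all genes, calls toward Reg4+ DCS and Lgr5+ cells fell from 731 and 2744 to 480 and 1850 with the second part alone. With 1 library left out, whichever it was, fewer of all genes were called in each direction as well. Whether the pathway lists lost more calls than all genes did was not tested. Scaling moved the median of all genes from −0.47 to 0.02, and the other causes were not tested.

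Uncalled genes that changed sign were as follows. After median-of-ratios scaling and in edgeR the log2 fold change was 0.337 and 0.426 for Tlr3, 0.0867 and 0.198 for Ly96, 0.412 and 0.415 for Irak4, 0.341 and 0.330 for Sigirr, 0.404 and 0.380 for Pycard, 0.0236 and 0.0393 for Nlrc4, and 0.0479 and 0.0328 for Irf1. With 1 library left out it ranged from −0.396 to 0.156 for Tlr3, from −0.239 to 0.162 for Tlr4, from −0.242 to 0.282 for Myd88, from −0.229 to 0.147 for Irak4, from −0.0680 to 0.613 for Tnfaip3 and from −0.0822 to 0.682 for Nfkbia. With the first part alone it was 0.114 for Tlr3, −0.0310 for Tlr4, −0.0990 for Myd88, 0.0528 for Ly96, 0.0932 for Irak4 and 0.0230 for Sigirr. The cause of these changes was not tested.

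The sources do not say that equal replicate numbers share a sort, and same-numbered libraries had deviations with a correlation of 0.21 across 10183 genes in 2 pairs. With the replicate number as a block, 5 of the 9 genes tested were called higher in Lgr5+ cells and 0 in Reg4+ DCS cells, Tlr1 being added (limma adjusted p = 0.0399). Calls over all 10183 genes rose as well, from 2744 to 3534 toward Lgr5+ and from 731 to 910 toward Reg4+ DCS cells. Pathway calls with the block were 9 and 19 toward Reg4+ DCS and Lgr5+ cells, Unc93b1 among the 9 (limma adjusted p = 0.0352).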
